A study of Mus musculus with 20 samples.

Results

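The genes described here encode proteins that coat or remodel the lipid droplet, the organelle in which hepatocytes store triglyceride. They are the 3 CIDE genes *Cidea*, *Cideb* and *Cidec*, the perilipins *Plin2*, *Plin3*, *Plin4* and *Plin5*, and *G0s2*, *Hsd17b13* and *Hilpda*, which encode droplet proteins of other families. They were chosen by symbol, and all 10 were found among the 50559 genes of the count table. RNA was sequenced from 20 livers of *Cideb* fl/fl mice on the C57BL/6 background, 5 in each of 4 groups. WT livers came from mice given AAV-TBG-GFP, and KO livers from mice given AAV-TBG-Cre. Every mouse therefore carried the floxed *Cideb* alleles and received an AAV, and the groups of a diet differ in the cargo of the vector. TBG is a hepatocyte promoter, so deletion was directed to hepatocytes and the other liver cells kept the intact alleles. The mice were fed either a western diet (WD) or CDA-HFD. WD was rich in sugar, fat and cholesterol and came with fructose and glucose in the drinking water. CDA-HFD was a high-fat diet made with L-amino acids and lacking choline, and the paper's methods also call it deficient in methionine. The labels give 3 months for either diet, whereas the paper's text describes a longer period on WD than on CDA-HFD, so the diet and the time on it cannot be told apart here. The age at collection was not given in the labels.

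CIDE proteins gather at the contacts between droplets and let lipid pass from the smaller droplet to the larger, which makes droplets grow. CIDEB is the member of healthy hepatocytes and also takes part in loading lipid onto VLDL, while CIDEA and CIDEC are best known from brown and white adipocytes and appear in hepatocytes that store much fat. Perilipins cover the droplet surface and govern the access of lipases. PLIN2 is the abundant coat of liver droplets, PLIN3 is found in most cells and binds droplets as they form, PLIN4 is mainly an adipocyte and muscle protein, and PLIN5 is typical of oxidative tissues and ties droplets to mitochondria. G0S2 and HILPDA inhibit ATGL, the first lipase of triglyceride breakdown (gene *Pnpla2*), and HSD17B13 is a droplet enzyme of the liver. Many of these genes are known targets of PPAR transcription factors, and *Hilpda* is also a known target of the hypoxia-inducible factors.

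Genes received between 11697049 and 16827147 reads per liver. Levels in single livers are CPM, the reads of a gene per 1e6 reads after TMM scaling of the libraries. Groups were compared with edgeR's quasi-likelihood F test over all genes kept by its filter on low counts. The verbs rose and fell, and the word passed, are kept for an adjusted p (Benjamini-Hochberg, all genes tested) below 0.05. The labels do not say more about how the mice of a group relate, and p-values measure the spread between these livers. The hepatocyte marker *Alb* stood between 23909 and 79736 CPM in all 20 livers. The library labelled KO on CDA-HFD, liver 5, stood apart from its group. On the first principal component of the CDA-HFD livers, which held 59.9% of the variance, it lay at -41.7, among the WT livers (-64.5 to -7.76), while the other KO livers on this diet lay between 43.3 and 67.0. Its *Cideb* count was 1, so it matched its label in the deleted gene. Where a call or a count below depended on it, the value without it is given as well.

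The genes are dispersed over the genome, except for *Plin4* and *Plin5*, which lie on the minus strand of chromosome 17, 1797 bp apart (*Plin4* at chr17:56100591-56109803 and *Plin5* at chr17:56111601-56117596, GRCm38). *Cideb* occupies chr14:55754050-55758458 on the minus strand, and 1136 of the 1488 bp of its exons are also covered by exons of *Nop9*, a gene on the opposite strand. RefSeq promoter windows of the GRCm38.p6 assembly, from 250 bases before to 50 after a transcript's start, were found for 9 of the 10 genes, 12 windows in all. Windows were searched on both strands for a PPAR element (2 copies of AGGNCA 1 base apart), for ACGTG, the core of the hypoxia response element, for CACGTG, an E-box, and for TATAAA. No window of these genes held the PPAR element, which occurs in 0.381% of all 32851 windows. *Plin2* held CACGTG, found in 7.15% of all windows, 4 bases before its start, and the ACGTG counted there on either strand is part of the same E-box. A second window of *Hilpda* held ACGTG, found in 19.6% of all windows, 43 bases before its start. *Cideb* held TATAAA, found in 13.6% of all windows, with its first base 172 bases before its start. The upstream sequences of *Plin2*, the most abundant perilipin in these livers, and of *Plin5* and *G0s2*, the pair that rose with the deletion on CDA-HFD, are printed 5′ to 3′ and end at or just inside the annotated gene, with the 30 bases around the *Hilpda* match. Capitals mark the matches, and those without capitals held none of the 4 motifs in the stretch shown.
*Plin2*, chr4:86670058-86670309, minus strand: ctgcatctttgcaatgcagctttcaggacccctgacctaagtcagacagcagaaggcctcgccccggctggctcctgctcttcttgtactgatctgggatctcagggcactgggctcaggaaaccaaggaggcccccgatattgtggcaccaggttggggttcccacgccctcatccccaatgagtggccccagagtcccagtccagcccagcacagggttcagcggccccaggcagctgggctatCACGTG
*Plin5*, chr17:56117597-56117798, minus strand: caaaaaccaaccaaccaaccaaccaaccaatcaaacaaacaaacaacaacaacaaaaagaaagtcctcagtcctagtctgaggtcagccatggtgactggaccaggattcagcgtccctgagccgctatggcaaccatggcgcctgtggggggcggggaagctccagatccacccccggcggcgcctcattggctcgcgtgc
*G0s2*, chr1:193273218-193273438, minus strand: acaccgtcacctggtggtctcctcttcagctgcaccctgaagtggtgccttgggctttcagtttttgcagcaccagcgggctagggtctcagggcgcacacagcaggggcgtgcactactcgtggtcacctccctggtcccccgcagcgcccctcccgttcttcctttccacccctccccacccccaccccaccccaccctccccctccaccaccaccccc
*Hilpda*, chr6:29272571-29272600, plus strand: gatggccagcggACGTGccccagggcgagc

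Levels of different genes were compared as CPM per kb of exon. In WT livers on WD, *Plin2* was the most abundant transcript at 201 ± 51.4 CPM per kb (SD, n = 5). *G0s2* followed at 162 ± 29, *Hsd17b13* at 156 ± 18 and *Cidec* at 100 ± 27.5 CPM per kb, and the ranges of the first 3 overlapped. *Cidea* stood at 67.0 ± 31.0, *Plin4* at 40.1 ± 8.09, *Plin5* at 37.9 ± 7.16 and *Plin3* at 17.5 ± 4.37 CPM per kb. *Cideb*, the gene under study, was the ninth of the 10 at 4.07 ± 0.750 CPM per kb, ahead of *Hilpda* at 2.94 ± 0.858. Over the 352 bp of *Cideb* exon that no other gene shares, the same reads would give 17.2 ± 3.17 CPM per kb, which would place it level with *Plin3*. The true level of *Cideb* relative to the other genes is therefore uncertain, while comparisons of *Cideb* between groups use the same length throughout.

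**Figure D1:**
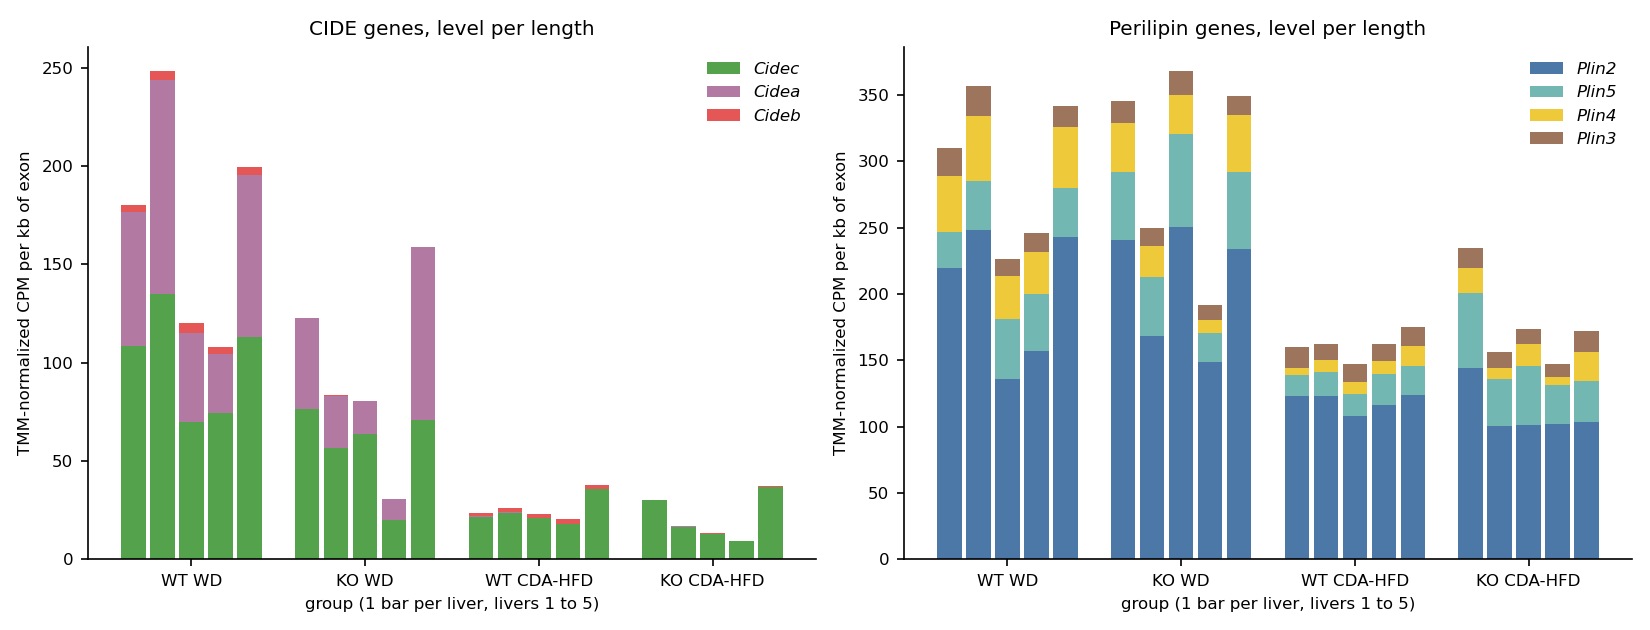
Stacked level per length (TMM-normalized CPM per kb of exon) of the 3 CIDE genes (left) and of the 4 perilipins (right), with 1 bar per liver and 5 livers per group. The CIDE total averaged 171 in WT and 95.2 in KO livers on WD and 26.0 and 21.3 on CDA-HFD, where *Cidea* is too low to be seen.

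Summed per length, CIDE transcripts came to 171 ± 58.0 CPM per kb in WT livers on WD and to 26.0 ± 6.76 on CDA-HFD. *Cidec* made up 59.7% ± 5.64 (SD, n = 5) of that total in WT livers on WD and 91.5% ± 2.78 on CDA-HFD. *Cidea* took 37.7% ± 6.10 on WD and 0.212% ± 0.182 on CDA-HFD. Perilipin transcripts came to 296 ± 58.0 CPM per kb in WT livers on WD and 161 ± 9.95 on CDA-HFD. *Plin2* formed the bulk in every group, between 62.6% ± 4.17 in KO livers on CDA-HFD and 73.7% ± 2.61 in WT livers on CDA-HFD. *Plin5* held 11.8% ± 1.59 of the perilipin total in WT and 22.1% ± 3.14 in KO livers on CDA-HFD, and the ranges of its share, 9.96% to 14.1% and 17.7% to 25.6%, did not overlap.

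**Figure D2:**
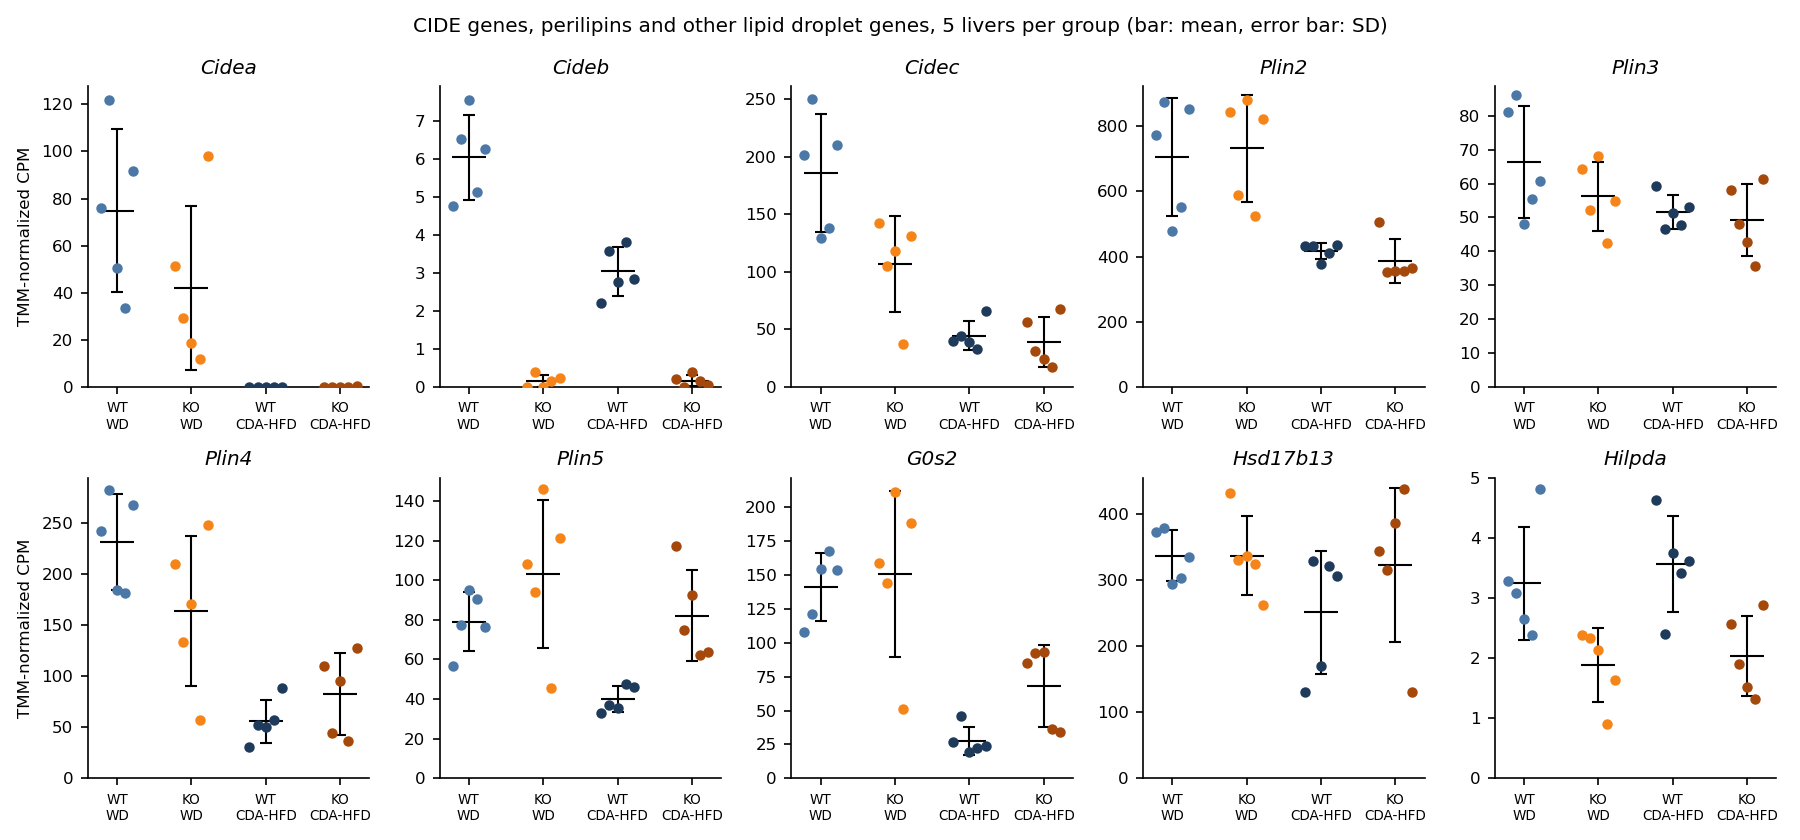
TMM-normalized CPM (vertical axes, from 0) of each of the 10 genes in each of the 20 livers, with points for livers 1 to 5 of a group, a bar for the mean and an error bar for the SD. *Cidea* is near 0 in all CDA-HFD livers, *Cideb* is near 0 in all KO livers, and *Plin5* of KO livers lies above that of every WT liver on CDA-HFD.

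On WD, *Cideb* itself was the only 1 of the 10 genes that passed between KO and WT livers, against 0.0757% of the 15848 genes tested. On CDA-HFD, 4 of 9 passed: *Plin5* and *G0s2* were higher and *Cideb* and *Hilpda* lower in KO livers, where 15.5% of 17204 genes passed, 8.19% higher and 7.29% lower. *Cideb* is the deleted gene, so its call on either diet was set by the design. Without KO liver 5 of CDA-HFD the count stayed at 4, while all genes that passed went from 2664 to 7201. In WT livers, 7 of 10 were lower on CDA-HFD than on WD, namely all 3 CIDE genes, *Plin2*, *Plin4*, *Plin5* and *G0s2*, and none was higher, where 51.1% of 16726 genes passed and 25.2% were lower. In KO livers, 3 of 9 were lower on CDA-HFD, namely *Cidea*, *Cidec* and *Plin2*, where 17.0% of 16387 genes passed and 7.85% were lower. The median log2 fold change over the genes described here was -0.998 for diet in WT livers and -0.92 in KO livers, beside -0.00 and 0.00 over all genes tested. For the KO it was -0.37 on WD and -0.07 on CDA-HFD, beside 0.01 and 0.00 over all genes. Both KO medians include *Cideb*, whose fall was set by the design, and medians without it were not computed. Of the genes tested here, 4 of 10 on WD and 4 of 9 on CDA-HFD had a KO log2 fold change above 0. The WT livers of a diet serve both a KO and a diet comparison, as do the KO livers, so these counts are not independent of each other.

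Scaling bears on the diet counts. With the libraries scaled by their size alone, the median gene moved by 0.42 (log2) for diet in WT livers, by 0.25 for diet in KO livers and by -0.19 for KO on CDA-HFD, and the share of higher genes among all that passed went from 50.7% to 85.3%, from 53.9% to 85.9% and from 52.9% to 30.3%. TMM scaling sets the bulk of genes near no change, and all changes given here are relative to that bulk. Under size scaling, 6 of the 10 genes were still lower on CDA-HFD in WT livers, *Plin2* being the exception (-0.36, adjusted p = 0.121). In that fit 10690 of all 16726 genes passed, and 85.3% of those were higher.

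*Cideb* was counted at 61, 76, 100, 52 and 86 reads in the WT livers on WD and at 0, 5, 0, 2 and 3 reads in the KO livers. On CDA-HFD the counts were 35, 51, 50, 57 and 60 in WT livers and 3, 0, 6, 2 and 1 in KO livers. The vector groups did not overlap on either diet, as was the case for 1.09% of genes, lower in KO, on WD and 4.54% on CDA-HFD. The mean fell from 6.05 ± 1.12 to 0.155 ± 0.165 CPM on WD (SD, n = 5; log2 fold change -5.12 ± 0.43 SE, adjusted p = 0.000766) and from 3.05 ± 0.652 to 0.163 ± 0.154 CPM on CDA-HFD (-4.19 ± 0.46 SE, adjusted p = 0.00268). From summed counts, 375 reads against 10, WT livers held 36.9 times the level of KO livers on WD (95% exact interval 19.8 to 77.6, for counting error only). On CDA-HFD the ratio was 18.9 (10.7 to 37.2), from 253 reads against 12. By the paper, the deletion removes exon 2 of *Cideb*, which lies outside the overlap with *Nop9*. If reads over both genes were left out, many of the reads counted may lie in the deleted part. The ratios may then not hold for the rest of the transcript, which was not tested.

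*Cideb* was itself lower on CDA-HFD in WT livers. Its values were 4.77, 6.52, 7.56, 5.15 and 6.27 CPM on WD and 2.22, 3.59, 2.76, 3.82 and 2.85 CPM on CDA-HFD, with no overlap. This was a log2 fold change of -1.002 ± 0.19 SE (adjusted p = 0.000940), and groups failed to overlap in this direction for 17.8% of genes tested. The paper describes liver *Cideb* mRNA as fairly stable over its diets, in a comparison that also covered normal chow. Its mice and feeding times need not be those of the livers used here, so this is not a like comparison. *Nop9*, which shares most of the exon sequence of *Cideb*, did not pass in that comparison (-0.05 ± 0.08 SE, adjusted p = 0.600). Between KO and WT livers, *Nop9*, a nuclear RNA-binding protein gene, was higher in KO livers on CDA-HFD (30.5 against 21.7 CPM, log2 fold change 0.48 ± 0.10 SE, adjusted p = 0.0163), and on WD the log2 fold change was 0.27 ± 0.09 SE (adjusted p = 0.325). It is not known whether the reads were counted by strand, and reads over both genes may have been left out of both.

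*Cidea*, the CIDE gene of thermogenic fat, differed most between the diets. Its values in WT livers on WD were 76.0, 122, 50.5, 33.5 and 91.9 CPM, and those in KO livers were 51.2, 29.4, 18.7, 11.8 and 98.1 CPM. On CDA-HFD no liver of either vector group had more than 4 reads, against 155 to 1418 reads in the WD livers. From summed counts, WT livers on WD held 1274 times the level of WT livers on CDA-HFD (95% exact interval 546 to 3925, 4658 reads against 5). KO livers on WD held 455 times that of KO livers on CDA-HFD (220 to 1132, 2547 reads against 7). These intervals are for counting error only and leave out the spread between livers. The 95% intervals of edgeR's log2 fold change were -11.3 to -8.91 in WT and -10.5 to -6.85 in KO livers. Both diet differences passed, with an adjusted p of 9.31e-07 in WT and 0.000126 in KO livers. On WD the KO and WT livers overlapped widely, and the log2 fold change of -0.84 ± 0.51 SE had an adjusted p of 0.581 (95% interval -1.94 to 0.27). *Cidea* was too low on CDA-HFD to enter the test of KO against WT. The paper reports that *Cidea* and *Cidec* increased on both fatty liver diets, and no livers on normal chow are among those used here.

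*Cidec*, which drives the large droplets of white fat and fatty liver, followed the diets in the same direction. WT livers had 202, 250, 129, 138 and 210 CPM on WD and 40.2, 44.0, 38.9, 33.1 and 66.1 CPM on CDA-HFD, and every WD value exceeded every CDA-HFD value (log2 fold change -2.07 ± 0.22 SE, adjusted p = 3.68e-05). KO livers had 142, 105, 118, 37.0 and 131 CPM on WD and 56.0, 30.7, 23.8, 17.2 and 68.1 CPM on CDA-HFD. The fall in KO livers passed (-1.44 ± 0.42 SE, adjusted p = 0.0366), although KO liver 4 on WD lay inside the CDA-HFD range, and it no longer passed in 7 of 10 fits that left out a liver (adjusted p up to 0.0782). Between KO and WT livers on WD, *Cidec* had a log2 fold change of -0.80 ± 0.30 SE with an adjusted p of 0.384 over all genes in edgeR's test. An exact two-sided permutation test of the same livers gave p = 0.0397, unadjusted. On CDA-HFD the difference was -0.19 ± 0.35 SE (adjusted p = 0.727, 95% interval -0.95 to 0.58).

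Among the perilipins, *Plin2* was lower on CDA-HFD in both vector groups and was close between KO and WT livers. WT livers had 772, 873, 477, 551 and 854 CPM on WD and 431, 433, 378, 409 and 434 CPM on CDA-HFD. KO livers had 845, 590, 879, 523 and 822 CPM on WD and 507, 352, 355, 357 and 364 CPM on CDA-HFD. In neither vector group did the diets overlap, where CDA-HFD lay wholly below WD for 7.13% of genes in KO livers, and the log2 fold changes were -0.77 ± 0.17 SE (adjusted p = 0.00253) in WT and -0.92 ± 0.17 SE (adjusted p = 0.00615) in KO livers. The KO differences were 0.05 ± 0.20 SE on WD (95% interval -0.37 to 0.48) and -0.11 ± 0.12 SE on CDA-HFD (-0.39 to 0.16).

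*Plin5* rose in KO livers on CDA-HFD and fell with that diet in WT livers. WT livers on CDA-HFD had 33.2, 37.1, 35.6, 47.7 and 46.1 CPM, and the KO livers had 117, 75.0, 92.7, 62.1 and 63.6 CPM. All KO values lay above all WT values, which held for 5.05% of genes tested, and the log2 fold change was 1.04 ± 0.19 SE (adjusted p = 0.0122). Without KO liver 5 it was 1.12 (adjusted p = 0.000893). On WD, WT livers had 56.7, 77.3, 95.05, 90.4 and 76.4 CPM and KO livers 108, 94.0, 146, 45.7 and 122 CPM. There 3 of 5 KO livers lay above every WT liver while KO liver 4 lay below them all, and the log2 fold change of 0.38 ± 0.25 SE did not pass (adjusted p = 0.605, 95% interval -0.16 to 0.92). From WD to CDA-HFD the WT livers fell by 0.99 on the log2 scale (SE 0.15, adjusted p = 0.000219, no overlap), and the KO livers had a log2 fold change of -0.33 ± 0.27 SE (adjusted p = 0.421).

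*Plin4* had its main difference between the diets in WT livers. They had 242, 282, 185, 181 and 268 CPM on WD and 31.0, 52.2, 50.1, 57.2 and 88.2 CPM on CDA-HFD, with no overlap and a log2 fold change of -2.06 ± 0.24 SE (adjusted p = 5.82e-05). KO livers had 210, 133, 171, 57.0 and 248 CPM on WD and 110, 44.3, 95.03, 36.5 and 127 CPM on CDA-HFD, a log2 fold change of -0.99 ± 0.41 SE (adjusted p = 0.119). The KO differences of *Plin4* were -0.50 ± 0.30 SE on WD (adjusted p = 0.580) and 0.56 ± 0.36 SE on CDA-HFD (adjusted p = 0.286). *Plin3* passed in none of the 4 comparisons, with means of 66.4 ± 16.5 CPM in WT and 56.3 ± 10.2 in KO livers on WD and 51.6 ± 5.01 and 49.1 ± 10.6 CPM on CDA-HFD. Its nearest was the diet difference in WT livers, -0.37 ± 0.15 SE with an adjusted p of 0.0590.

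*G0s2*, the ATGL inhibitor, had the largest fall with CDA-HFD in WT livers after *Cidea* among the 10 genes, by log2 fold change. WT livers had 108, 122, 155, 168 and 154 CPM on WD and 26.5, 45.6, 19.1, 22.6 and 23.5 CPM on CDA-HFD, with no overlap and a log2 fold change of -2.37 ± 0.22 SE (adjusted p = 1.93e-05). KO livers on CDA-HFD had 85.4, 92.4, 93.5, 36.5 and 34.5 CPM, so that 3 of 5 lay far above every WT liver and KO livers 4 and 5 lay above 4 of the 5 WT livers and below WT liver 2. The rise in KO livers passed (1.32 ± 0.34 SE, adjusted p = 0.0296). It no longer passed in 7 of 10 fits that left out a liver, with an adjusted p up to 0.0783. The adjusted p was smallest without KO liver 5 (1.49, adjusted p = 0.00268), and the log2 fold change was largest without WT liver 2 (1.58). On WD, KO livers had 159, 144, 211, 51.4 and 188 CPM, a log2 fold change of 0.09 ± 0.29 SE (95% interval -0.53 to 0.72). The diet difference in KO livers was -1.15 ± 0.38 SE with an adjusted p of 0.0596.

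*Pnpla2*, whose product G0S2 and HILPDA inhibit, and *Abhd5*, which encodes its activator, were added after their values were seen. On WD, *Pnpla2* stood at 120 ± 14.7 CPM (WT) and 120 ± 9.29 CPM (KO), and at 89.4 ± 13.5 and 121 ± 21.2 CPM on CDA-HFD. It fell with CDA-HFD in WT livers (-0.44 ± 0.12 SE, adjusted p = 0.00960), and its KO difference on CDA-HFD, 0.44 ± 0.14 SE, had an adjusted p of 0.0599. *Abhd5* was lower on CDA-HFD in WT livers (-0.32 ± 0.10 SE, adjusted p = 0.0153) and had a KO difference of -0.05 ± 0.10 SE on CDA-HFD (adjusted p = 0.752).

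*Hilpda* was a scarce transcript in every group, at 1.71 to 3.23 CPM per kb on average, and its KO difference was of like size on the 2 diets. WT livers had 3.29, 3.09, 2.64, 2.38 and 4.81 CPM on WD and 4.63, 2.39, 3.75, 3.42 and 3.61 CPM on CDA-HFD. KO livers had 2.39, 2.33, 2.14, 0.910 and 1.64 CPM on WD and 2.57, 1.90, 1.53, 1.32 and 2.88 CPM on CDA-HFD. The log2 fold change was -0.80 ± 0.27 SE on WD, with an adjusted p of 0.328. On CDA-HFD it was -0.80 ± 0.25 SE, with an adjusted p of 0.0498 just under the threshold, and it no longer passed in 8 of 10 fits without a liver (adjusted p up to 0.122) nor with a replicate block (0.0517). Counts were 12 to 76 per liver, so that counting error alone is sizeable. *Hsd17b13*, a hepatocyte gene of high level, passed in no comparison. Its means were 337 ± 38.9 CPM in WT and 337 ± 60.4 in KO livers on WD, 251 ± 93.4 in WT and 323 ± 117 CPM in KO livers on CDA-HFD, where it spread from 131 to 438 CPM over the 10 livers and KO liver 5 was the lowest.

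**Figure D3:**
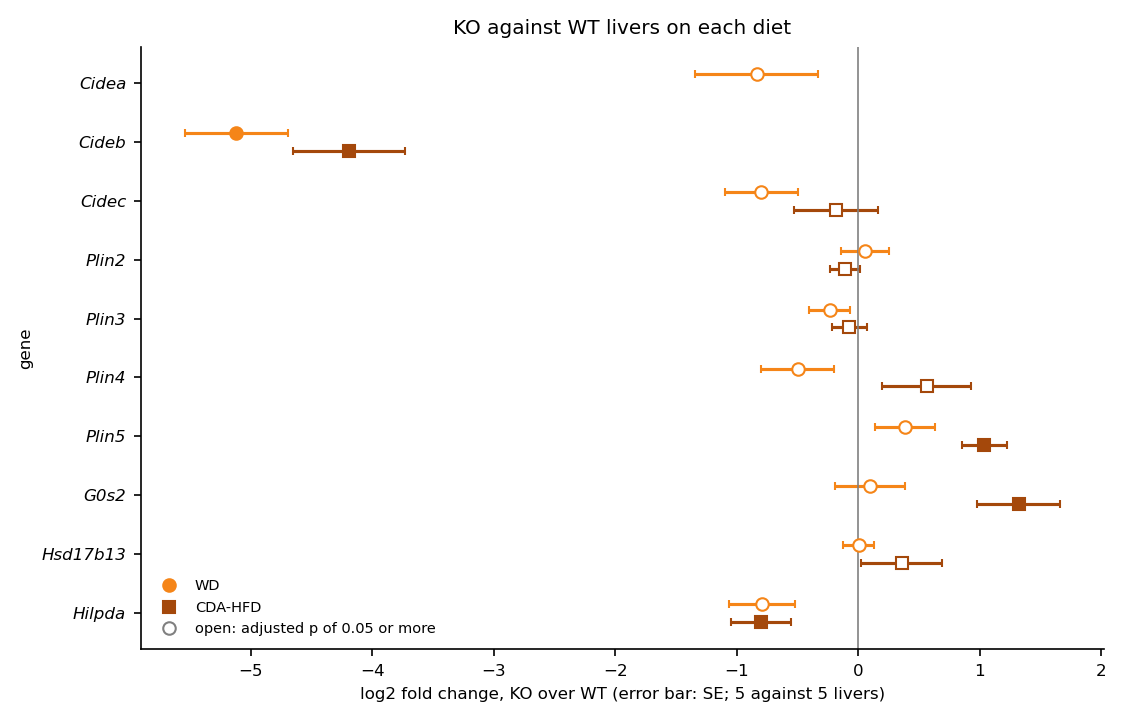
Log2 fold change of KO over WT livers (horizontal axis) of each gene on WD (circles) and CDA-HFD (squares), with SE bars, 5 against 5 livers; filled symbols passed at an adjusted p under 0.05. *Cideb* is the lowest on both diets, *Plin5* and *G0s2* pass above 0 and *Hilpda* below 0 on CDA-HFD, and *Cidea* was not tested there.

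**Figure D4:**
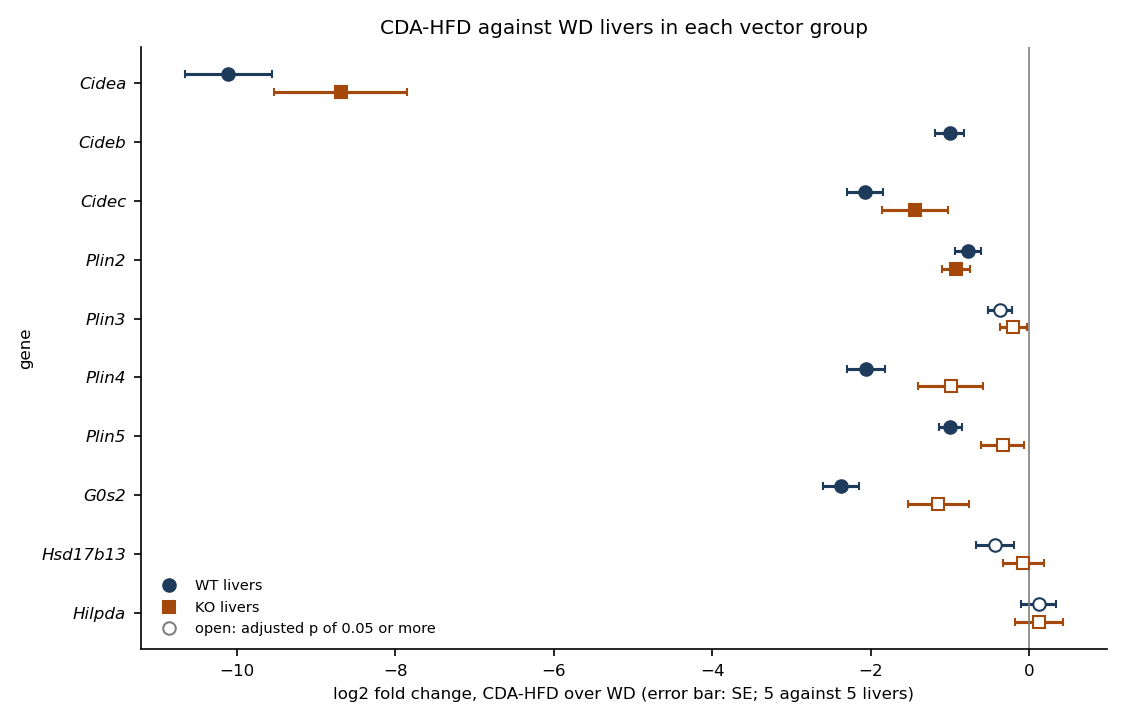
Log2 fold change of CDA-HFD over WD livers (horizontal axis) of each gene in WT (circles) and KO livers (squares), with SE bars, 5 against 5 livers; filled symbols passed at an adjusted p under 0.05. *Cidea* lies at -10.11 in WT and -8.69 in KO livers, 7 genes pass below 0 in WT and 3 in KO livers, and *Cideb* was not tested in KO livers.

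Whether the KO effect itself differed between the diets was tested as an interaction over all 20 livers. None of the 10 genes passed, where 0.556% of 17804 genes did, and 2 of the 10 had an unadjusted p under 0.05, as did 2736 of the 17804 genes. *G0s2* had the largest interaction of those, 1.23 ± 0.47 SE on the log2 scale (edgeR adjusted p = 0.231), and *Plin4* followed with 1.07 ± 0.51 SE (adjusted p = 0.322). *Plin5* had 0.66 ± 0.33 SE (adjusted p = 0.346). That *Plin5* and *G0s2* passed on CDA-HFD and not on WD is therefore not shown to be a difference between the diets. Without KO liver 5 of CDA-HFD, *G0s2* passed (1.40, adjusted p = 0.0486), while 2138 genes passed in that fit. DESeq2 also made 0 calls among the 10.

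The 42 other genes of lipid droplet biology that were listed beside these, among them lipases, acyltransferases, seipin and FIT proteins, showed where the droplet genes sit. Of the 41 tested, none passed between KO and WT livers on WD. There 9 had an unadjusted p under 0.05, as did 1702 of the 15848 genes tested. On CDA-HFD 9 were higher in KO livers and none was lower, with a median log2 fold change of 0.23 over the list. Of all genes tested in that comparison, 8.19% were higher and 7.29% lower. The 3 with the smallest adjusted p were *Zfyve1*, encoding a protein that binds droplets and the ER (0.82 ± 0.08 SE, adjusted p = 0.00158), *Gpat4*, an acyltransferase of triglyceride synthesis (0.78 ± 0.14 SE, adjusted p = 0.0121), and *Lipe*, hormone-sensitive lipase (0.79 ± 0.16 SE, adjusted p = 0.0143). Without KO liver 5, 19 were higher and 3 lower, while all genes that passed went from 2664 to 7201. In the interaction, 1 of the 41 passed, *Lipe* (0.99 ± 0.18 SE, adjusted p = 0.0172), beside 0.556% of all genes tested. Without KO liver 5, 10 were higher and 1 lower, while all genes that passed went from 99 to 2138. With libraries scaled by size alone 0 of the list passed, where 44 of all genes did. The unadjusted p was under 0.05 for 15 of the 41, and for 2736 of all 17804 genes tested.

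In WT livers 28 of the 41 were lower and 4 higher on CDA-HFD, led by *Pnpla3*, a droplet protein gene whose human variant raises the risk of fatty liver (-3.44 ± 0.18 SE, adjusted p = 6.21e-07), *Lipe* (-1.48 ± 0.11 SE, adjusted p = 6.78e-06) and *Fitm1*, a FIT protein gene (-3.03 ± 0.25 SE, adjusted p = 9.01e-06). Of all genes tested there, 25.2% were lower and 51.1% passed in either direction. With libraries scaled by size alone, 15 of the list were lower and 14 higher, while 10690 of all genes passed and 85.3% of those were higher. In KO livers 13 were lower and 4 higher, where 7.85% of all genes tested were lower and 17.0% passed in either direction. Without KO liver 5 of CDA-HFD, 11 were lower and 4 higher. The smallest adjusted p there belonged to *Sqle*, the squalene epoxidase of cholesterol synthesis, which rose from 4.32 ± 1.08 to 90.6 ± 22.7 CPM (4.39 ± 0.23 SE, adjusted p = 1.82e-06). *Rdh16*, a retinol dehydrogenase gene (-1.35 ± 0.15 SE, adjusted p = 0.000233), and *Gpat4* (-1.02 ± 0.12 SE, adjusted p = 0.000327) followed. Under size scaling 6 were lower and 6 higher, while 3924 of all genes passed and 85.9% of those were higher.

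Of 16 transcription regulators with known ties to droplet genes, none passed between KO and WT livers on WD. There 3 had an unadjusted p under 0.05, as did 1702 of the 15848 genes tested. On CDA-HFD 4 were higher and 1 lower in KO livers, beside 8.19% and 7.29% of all genes tested. *Mlxipl*, which encodes the carbohydrate sensor ChREBP, rose by 1.07 ± 0.20 SE (adjusted p = 0.0132) and *Hnf4a*, a hepatocyte identity factor, by 0.84 ± 0.17 SE (adjusted p = 0.0154). *Pparg*, whose product switches on *Cidea*, *Cidec* and *Plin4* in adipocytes, fell by 0.59 (log2, SE 0.11, adjusted p = 0.0137). The paper instead reports more *Pparg* mRNA by qPCR, and more of its protein, in KO livers on CDA-HFD. Without KO liver 5, 8 were higher and 2 lower, while all genes that passed went from 2664 to 7201. In WT livers 12 were lower on CDA-HFD and none higher, led by *Srebf1*, the regulator of fatty acid synthesis genes (-2.38 ± 0.16 SE, adjusted p = 3.27e-06), *Epas1*, which encodes HIF2α (-1.07 ± 0.10 SE, adjusted p = 2.17e-05), and *Mlxipl* (-1.67 ± 0.17 SE, adjusted p = 2.93e-05). Of all genes tested there, 25.2% were lower and 51.1% passed in either direction. Under size scaling, 7 of the regulators were lower and 3 higher, while 10690 of all genes passed and 85.3% of those were higher. In the interaction none of the 16 passed, beside 0.556% of all genes tested. An unadjusted p under 0.05 was found for 6 of them and for 2736 of all 17804 genes. Without KO liver 5, 8 were higher, while all genes that passed went from 99 to 2138. For diet in KO livers 8 were lower and none higher, led by *Srebf1* (-2.03 ± 0.27 SE, adjusted p = 0.000748), *Ppargc1b*, a coactivator (-1.002 ± 0.16 SE, adjusted p = 0.00214), and *Mlxipl* (-1.01 ± 0.16 SE, adjusted p = 0.00233). Of all genes tested there, 7.85% were lower. Without KO liver 5 of CDA-HFD, 7 of the regulators were lower.

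Markers of other cells moved with the same comparisons. In bulk tissue, fewer cells of a type and less RNA per cell cannot be told apart. *Cidea*, *Cidec* and *Plin4* are also adipocyte genes, and the defining adipocyte markers *Adipoq*, *Plin1* and *Lep* had at most 2 reads in any liver. The summed level of the 8 adipocyte markers was 56.6 to 123 CPM in WT and 32.3 to 88.8 CPM in KO livers on WD and 9.83 to 16.4 and 17.4 to 30.3 CPM on CDA-HFD. Most of it came from *Lipe* and, on WD, from *Cfd*, the complement factor adipsin, whose mean on WD was 45.7 ± 28.5 CPM (WT) and 15.9 ± 22.3 CPM (KO), against 0.0127 ± 0.0284 and 0.0974 ± 0.159 CPM on CDA-HFD. Of the 3 adipocyte markers tested for diet in WT livers, 2 were lower on CDA-HFD, *Cfd* and *Lipe*, beside 25.2% of all genes tested.

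The marker counts below stand beside these shares of all genes tested. For diet, 25.2% were lower and 51.1% passed in WT livers, and 7.85% and 17.0% in KO livers. For KO on CDA-HFD, 8.19% were higher and 7.29% lower. Of the 12 hepatocyte markers, 7 were lower on CDA-HFD in WT livers and 1 in KO livers, and 2 were higher in KO than in WT livers on CDA-HFD. Their sum was 65234 to 109097 CPM in WT and 75220 to 97676 in KO livers on WD, 36415 to 76965 CPM in WT and 39476 to 109247 in KO livers on CDA-HFD. Macrophage markers summed to 1801 to 3758 CPM in WT and 621 to 2151 CPM in KO livers on CDA-HFD, and to 398 to 1291 and 324 to 632 CPM on WD. On CDA-HFD 5 of 12 were lower in KO livers, led by *Cd14* (-1.43), *Cd68* (-1.53) and *Adgre1* (-0.90, log2). Another 3 of the 12 lay above 0 and did not pass, *Marco* (1.22), *Timd4* (0.64) and the defining marker *Clec4f* (0.34, log2). Stellate cell markers summed to 2262 to 3696 CPM in WT and 1344 to 3823 in KO livers on CDA-HFD, and to 694 to 1234 and 660 to 1197 CPM on WD. On CDA-HFD 2 of 12 were lower in KO livers, *Acta2* (-1.90) and *Timp1* (-2.19, log2). The defining markers *Lrat* (0.10) and *Reln* (0.07, log2) lay above 0 and did not pass. For diet in WT livers, 7 macrophage, 11 stellate cell, 7 cholangiocyte and 4 lymphocyte markers were higher, and 2 macrophage and 6 endothelial markers were lower. For diet in KO livers, 5 macrophage, 5 stellate cell, 4 cholangiocyte and 3 lymphocyte markers were higher. Between KO and WT livers on CDA-HFD no cholangiocyte, endothelial or lymphocyte marker passed, and on WD no marker of any list passed, where 1 hepatocyte, 1 adipocyte, 3 macrophage, 2 stellate cell, 1 endothelial and 0 cholangiocyte and lymphocyte markers had an unadjusted p under 0.05. Over all genes, 1702 of the 15848 tested on WD had such a p. The marker counts depended on KO liver 5 of CDA-HFD. All genes that passed for KO on this diet went from 2664 to 7201 without that liver. Without it, KO livers on CDA-HFD had 6 hepatocyte, 2 adipocyte, 6 endothelial and 2 macrophage markers higher than WT livers, and 8 macrophage, 9 stellate cell, 6 cholangiocyte and 1 lymphocyte markers lower. For diet in KO livers, 1 lymphocyte marker was higher without it in place of 3, 6 macrophage markers in place of 5 and 4 stellate cell markers in place of 5. The counts also depended on scaling. With libraries scaled by size alone, diet in WT livers left 3 hepatocyte and 2 endothelial markers lower and no macrophage marker lower, with 1 hepatocyte and 1 endothelial marker higher. Diet in KO livers then gave 8 stellate cell and 6 cholangiocyte markers higher. Under that scaling 10690 of all genes passed for diet in WT livers and 3924 in KO livers, 85.3% and 85.9% of them higher. KO liver 5 was the KO liver of CDA-HFD with the highest macrophage, stellate cell and cholangiocyte sums, 2151, 3823 and 290 CPM, and the lowest hepatocyte sum, 39476 CPM. The part of these shifts in the droplet gene results was not tested.

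Within groups, the livers varied together in some of the genes. After the group means were removed from log2 CPM, *Cidec* correlated with *Plin4* (r = 0.84), *Plin3* (0.80), *Hilpda* (0.77), *Plin2* (0.68) and *Cidea* (0.63) over the 20 livers. *Plin5* went with *G0s2* (0.76) and *Plin4* (0.61), and less with *Plin3* (0.21) and *Cidea* (0.12). *Hsd17b13* ran apart from the rest, with r between -0.38 and 0.25. These are descriptions over livers that share their libraries' scaling. *Cideb* had at most 6 reads in any KO liver and *Cidea* at most 4 in any CDA-HFD liver. Their r within groups, here and below, therefore rests in part on values near 0 and on counting noise. KO liver 4 on WD was the lowest of its group in 8 of the 10 genes, and the correlations without it were not computed. KO liver 5 on CDA-HFD was the highest of its group in 5 of 10, and WT liver 2 on WD in 6 of 10.

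**Figure D5:**
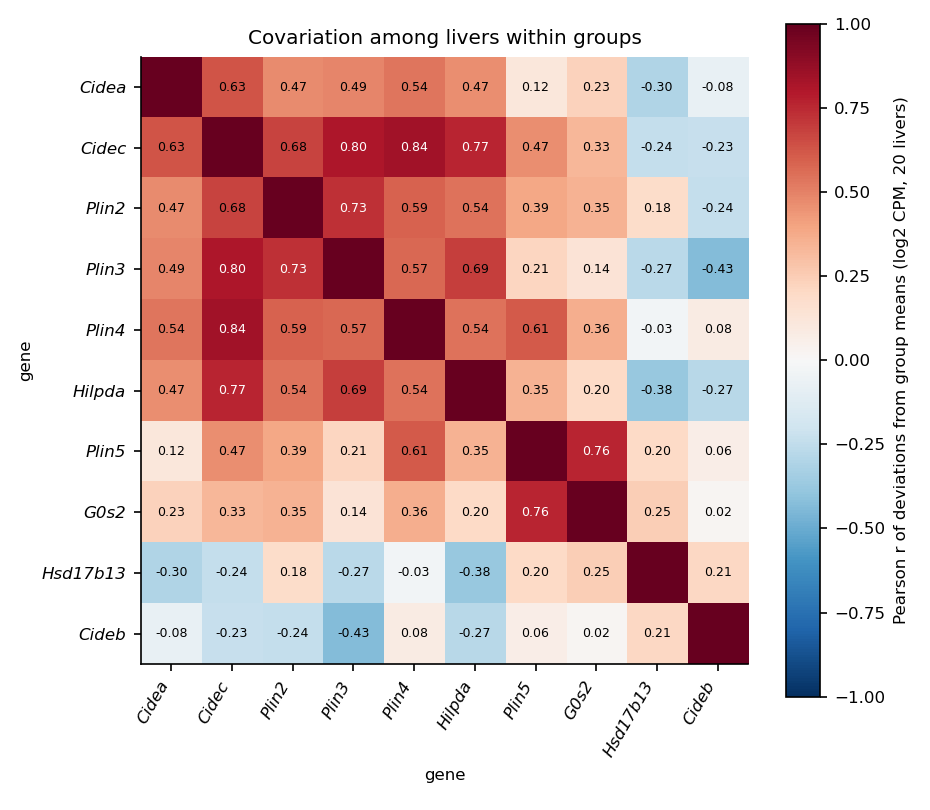
Pearson r between genes (rows and columns) of the deviations of log2 CPM from the group means, over 20 livers, coloured from -1 to 1. The block of *Cidec*, *Plin2*, *Plin3*, *Plin4* and *Hilpda* and the pair of *Plin5* and *G0s2* (0.76) stand out, and *Hsd17b13* and *Cideb* sit apart.

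The genes whose levels followed each of these most closely over all 20 livers, among 11027 well expressed genes, were taken as the 3 of highest r. For *Cidea* they were *Elovl5*, a fatty acid elongase (r = 0.96), and *Me1*, the cytosolic malic enzyme (0.96), for which the likeness lay between groups, since r within groups was 0.05 and 0.10, and *Ppp2r1b* (0.96, within groups 0.73). *Cidec* was nearest *S100a10* (0.93, within groups 0.71), *Wfdc2* (0.91) and *Denn2b* (0.91), *Plin2* nearest *Dhrs7b* (0.92), *Tkt*, transketolase (0.90), and *Msrb2* (0.90), and *Plin4* nearest *Insig2*, a brake on SREBP processing (0.90), *Cyp17a1* (0.90) and *Zbed5* (0.89). For *Plin5* they were *Aifm2* (0.90, within groups 0.76), which encodes the droplet-associated protein FSP1, *Slc45a3* (0.89) and *Tmem82* (0.89). *G0s2* was nearest *Glrx5* (0.96, within groups 0.83), *Uck1* (0.95) and *Nelfcd* (0.95). *Plin3* was nearest *Limch1* (0.91), *Kbtbd11* (0.91) and *Fbxo6* (0.91), *Hsd17b13* nearest *Sntb1* (0.88), *Focad* (0.88) and *C9*, a complement gene (0.88), and *Hilpda* nearest *Mgat5* (0.92), *Ankrd13a* (0.90) and *Enc1* (0.88). Near *Cideb* were *Ctbs* (0.81, within groups 0.39) and *Ptp4a2* (0.80, within groups -0.028).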

How the data were processed

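The authors deposited read counts per gene symbol for 20 mouse livers. The counts are whole numbers without normalization, and 5 tallies of reads assigned to no gene were left out. Of all reads per liver, 20.7% to 28.8% overlapped no counted feature and 0.800% to 1.03% overlapped more than 1 gene. The submitters' processing notes name the build mm10, and the aligner and counter are not given in the sources used here. The paper's methods and the labels name different library kits, and only the labels' kit is directional. The vector came from the sample titles. The diet came from the titles of the WD livers and from the treatment label of the CDA-HFD livers. Of the columns, 0 belonged to other samples.

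Counts were fitted in R 4.3.3 with edgeR 4.0.16 (filterByExpr, TMM, quasi-likelihood F test, Benjamini-Hochberg over all genes, threshold 0.05) within the 2 groups compared, and with an interaction over all 20 livers. Exact two-sided permutation tests, 5 livers against 5, allow 252 splits and no p under 0.00794. SE is the log2 fold change divided by the root of F, and intervals use the fit's degrees of freedom. The procedure was tested on simulated counts. Levels per length used union exon lengths of the GRCm38 GENCODE annotation, and promoters are from RefSeq. No protein sequences were analysed here. Principal components and correlations took a prior count of 2 in log2 CPM. Figures were drawn with matplotlib 3.10.9 in Python 3.11.15.

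No library was a copy of another in its group: the counts of the 40 pairs differed by 6.95 to 124 times sampling noise. The residuals of same-numbered livers correlated between -0.37 and 0.35. Livers of different numbers were not compared, so it is not settled whether the numbers pair livers. The genes described, the lists and the tests were chosen with earlier results of these data known. The rule named the 10 genes, *Nop9*, the 3 smallest adjusted p of a list and comparison among the passing genes, and the 3 genes of highest r with each, at a mean log2 CPM of at least 2, without predicted genes. Of the genes of highest r, 1 is not reported here. Results were refitted with DESeq2 1.42.0, with RLE size factors, with scaling by library size, no filter, at least 10 counts in every library, a replicate block, all 20 livers together, other gene lengths and each liver left out. List counts under other scalings and without KO liver 5 of CDA-HFD, and the unshared exon length, were added after seeing the data.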

Additional observations from a re-analysis of the deposited data

Results flagged for a closer look

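In 2 of the 40 combinations of gene and group, a liver stood farther from its group than Dixon's limit for 5 values, where about 2 would be so by chance. *Plin2* in KO liver 1 on CDA-HFD was 507 CPM beside 352 to 364 CPM in the other 4, a gap of 0.924 of the group's range. *G0s2* in WT liver 2 on CDA-HFD was 45.6 CPM beside 19.1 to 26.5 CPM in the other 4, a gap of 0.722 of the range.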

How the results depend on the processing

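Over the log2 fold changes of the 10 genes, 300 of 320 refits under other settings and 525 of 580 refits without a liver kept direction and side of the threshold. Signs turned in these refits only for genes that did not pass. On WD, the KO difference of *Hsd17b13* became -0.0062 with RLE, -0.028 with library size, -0.0062 with DESeq2, -0.0057 without a filter, -0.0033 with at least 10 counts and -0.0070 with the replicate block. With library size, the diet difference of *Plin3* became 0.043 in WT and 0.070 in KO livers and that of *Hsd17b13* in KO livers 0.12. Without a liver, signs turned for the KO differences of *Plin2* (-0.070 to 0.14), *G0s2* (-0.061 to 0.31) and *Hsd17b13* (-0.10 to 0.068) on WD and *Cidec* (-0.48 to 0.0049) and *Plin3* (-0.16 to 0.026) on CDA-HFD, for the diet differences of *Hsd17b13* (-0.20 to 0.13) and *Hilpda* (-0.056 to 0.25) in KO livers, and for the interaction of *Hilpda* (-0.20 to 0.11). On WD, 0 of the 10 genes passed with at least 10 counts in every library, a filter that removes *Cideb*. For KO on CDA-HFD, 2 to 4 passed without a liver. For diet in KO livers, 5 passed with the replicate block and with all 20 livers in 1 fit (3 as fitted), *Plin4* (adjusted p = 0.00644 and 0.04997) and *G0s2* (0.0342 and 0.0187) being added. Whether the numbers pair livers is not known. *G0s2* also passed there with DESeq2 (0.0155). Exact permutation gave 2 genes under 0.05 for diet in KO livers with library size, in place of 4. For the interaction, 0 or 1 passed without a liver. *Hilpda* for KO on CDA-HFD also missed the threshold with library size (0.0671) and without a filter (0.0683), and *Cidec* for diet in KO livers with library size (0.0864). Over unshared exon bases, *Cidec* was 72.6% of CIDE transcripts in WT and 96.7% in KO livers on CDA-HFD. By the longest transcript, *Plin2* was 78.5%, 80.6%, 83.4% and 74.9% of perilipin transcripts in WT and KO livers on WD and WT and KO livers on CDA-HFD. The count of all genes that passed for KO on WD, 12 as fitted, was 164 with DESeq2, 38 without a filter, 2 with the block, 26 with all 20 livers and 1 to 33 without a liver. For KO on CDA-HFD, 2664 as fitted, it was 1709 with library size, 4146 with DESeq2, 4170 with all 20 livers and 709 to 7201 without a liver, the most without KO liver 5. For diet in KO livers, 2792 as fitted, it was 4476 with all 20 livers and 1568 to 2881 without a liver. For the interaction, 99 as fitted, it was 44 with library size, 434 with DESeq2, 52 without a filter, 63 with the block and 35 to 2138 without a liver. The causes were not tested. Depth limits *Cidea* on CDA-HFD, where KO against WT, fitted without a filter, was 0.56 (adjusted p = 0.719), and *Cideb* in KO livers.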
